A study of Mus musculus with 8 samples.

Results

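The B6 chromosomes were followed from inbred B6 (C57BL/6J) mice into hybrids that carry them beside a DBA (DBA/2J) genome. Reduced representation bisulfite sequencing (RRBS) was made from the livers of 8 mice, of which 6 carry B6 chromosomes. These are 1 female and 1 male B6 mouse, 1 female and 1 male BXD F1 mouse, whose mother was B6 and father DBA, and 1 female and 1 male DXB F1 mouse from the reciprocal cross, all 16 weeks old and fasted for 16 h. The B6 chromosome is thus maternal in BXD and paternal in DXB. The study describes the inbred mice as the parents of the F1 mice. Reads that hold a SNP were sorted by the authors to one strain or the other, and only reads with the B6 tag were used. Autosomal CGs entered when at least 10 such reads covered them in both parents and in at least 3 F1 mice. Of 71562 autosomal CGs with a B6-tagged read in any of the 6 mice, 11580 met this rule, and 9492 had 10 reads in all 6 mice. Reads of any class in any of the 8 mice covered 1426047 autosomal CGs. Every B6-tagged set is 1 mouse, so the error of a group mean is the spread over 2 parents or 4 F1 mice that also differ in sex and, for the F1, in cross.

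Methylation of a CG is copied to the new strand by Dnmt1 after each replication, and patterns are largely erased and rebuilt in the germ line and the early embryo. CG-rich transcription starts usually stay unmethylated, and most CGs elsewhere are methylated. In an F1 mouse both genomes sit in the same nuclei, so a B6 allele that depends on its own sequence should keep its level there, while one that follows diffusible factors can move toward its partner. At imprinted loci the level depends instead on the parent that passed on the chromosome. In whole liver, which is mostly hepatocytes, a level is a mean over cells, and a change in cell types cannot be told apart from a change within cells.

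Some libraries stood apart before any comparison. B6 tags made up 99.7% of the sorted calls in the B6 female and 52.3% to 53.4% in the F1 mice, but 83.9% in the library labelled B6 male. Of the 11580 CGs, 1493 (12.9%) lay in 100 kb windows where that library had under 95% B6 tags. Distance from the MspI cut also differed. Its 99th percentile was 99 bases in the B6 female and the BXD male, 75 in the B6 male, and 50 in the BXD female, DXB female and DXB male, so short reach goes with 3 of the 4 F1 mice and with neither parent. Median B6-tagged reads at these CGs were 89 in the B6 female, 50 in the B6 male, 46 in the BXD female, 66 in the BXD male, and 31 in the DXB female as well as the DXB male. In B6-tagged reads 0.334% to 1.10% of CHH cytosines were called methylated. For reads of all classes, cell type markers within 1 kb of their starts could be compared at CGs covered in all 6 mice for 7 of 25 genes, with none for Kupffer cells or endothelium. The liver transcription factor Hnf4a was at 30.4% and 22.2% in the B6 female and male and at 39.99% to 48.5% in the F1 mice. Col1a1, a collagen gene of stellate cells, was at 60.4% and 62.0% in the parents and at 36.4% to 49.0% in the F1 mice. Other genes of these lists overlapped between the groups, with Foxa3 at 2.16% and 2.22% in the parents and 0.568% to 4.49% in F1, Des at 10.8% and 12.2% against 10.7% to 14.5%, and Lrat at 2.16% and 11.1% against 3.85% to 10.2%. The part of these differences in the results that follow was not tested.

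The stretches on which the results turn are shown first, as the plus strand of mm9 (NCBIM37), 5′ to 3′, with the CGs discussed here in capitals. The first 6 held CGs that passed the test between parents and F1 mice. The last 3 held 3 neighbouring CGs at which every F1 set with at least 10 reads lay above both parents.
intergenic, chr5:111062831-111062885: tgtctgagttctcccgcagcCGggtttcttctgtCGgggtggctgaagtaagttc
near Usp32, chr11:84791340-84791389: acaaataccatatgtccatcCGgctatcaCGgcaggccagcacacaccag
near Dmrtb1, chr4:107339735-107339775: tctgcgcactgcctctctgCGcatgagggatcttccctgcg
Capn5, chr7:105327717-105327793: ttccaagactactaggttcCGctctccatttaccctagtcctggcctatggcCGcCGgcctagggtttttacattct
Zfp710, chr7:87226208-87226248: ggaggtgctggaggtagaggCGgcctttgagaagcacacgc
3110070M22Rik, chr13:120277536-120277621: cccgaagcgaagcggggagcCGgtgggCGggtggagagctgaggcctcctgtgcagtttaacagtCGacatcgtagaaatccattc
Hspg2, chr4:137034765-137034840: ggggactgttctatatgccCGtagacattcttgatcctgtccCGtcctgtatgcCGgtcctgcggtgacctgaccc
Lmf1, chr17:25785693-25785760: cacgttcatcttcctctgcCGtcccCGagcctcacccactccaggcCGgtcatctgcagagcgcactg
Mn1, chr5:111849197-111849258: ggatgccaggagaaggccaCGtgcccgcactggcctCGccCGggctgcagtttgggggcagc
The CGs of Hspg2, Lmf1, Mn1, Capn5 and Dmrtb1 were read on the minus strand and the others on the plus strand.

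To ask how stable the B6 mark stayed, levels were first compared over all 11580 CGs. Mean levels of parents and F1 lay within 5 percentage points of each other at 69.1% of the CGs, within 10 points at 86.7% and within 20 points at 97.7%. At 266 CGs they lay over 20 points apart, at 56 over 30 points and at 3 over 50 points. Over the 9492 CGs with 10 reads in all 6 sets, the mean level was 55.6% in the B6 female, 54.4% in the B6 male, 56.1% in the BXD female, 55.4% in the BXD male, 55.7% in the DXB female and 55.0% in the DXB male. The ranges overlapped. F1 mice averaged 55.5% ± 0.458 (SD, n = 4) and parents 55.0% ± 0.888 (SD, n = 2), a difference of 0.554 points (two-sided exact permutation test over 15 assignments, p = 0.40; the smallest p this design allows is 0.133). Without the B6 male the difference turned to -0.132 points.

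**Figure D1:**
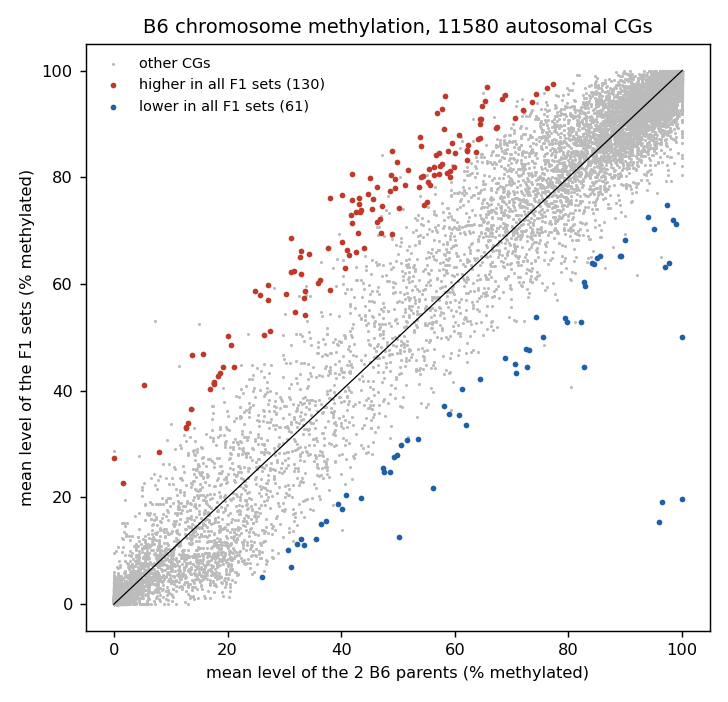
Mean methylation level of the 2 B6 parents (x axis, %) against the mean of the F1 sets (y axis, %) at 11580 autosomal CGs, with the line of equality. Red and blue points are the 130 CGs and 61 CGs at which every F1 set with at least 10 reads lay above or below both parents, by a mean of 20 points or more. Most CGs lie near 0% or 100% in both, and 3 blue points at the lower right left the high levels by over 50 points.

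Pairs of mice were then compared, since a parent and an F1 mouse can differ no less than mice of one kind do. The mean absolute difference over the 9492 CGs was 6.40 points between the 2 parents and 5.17 to 5.71 points among the 6 pairs of F1 mice. The B6 female differed from the F1 mice by 4.23 to 5.37 points, which overlaps the range within the F1. The B6 male differed from them by 7.05 to 7.70 points, above every pair that did not hold it. The smallest difference of all 15 pairs, 4.23 points, was between the B6 female and the BXD male, the 2 sets that share the longest reach. With each set thinned to 10 reads a CG, that pair was still the lowest at 8.28 points, and the 5 pairs with the B6 male were the highest at 9.93 to 10.6 points. Over all pairs, parents and F1 differed by 0.630 points more than mice within a group (exact permutation test, two-sided, p = 0.533), and by 0.408 points less without the B6 male.

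**Figure D2:**
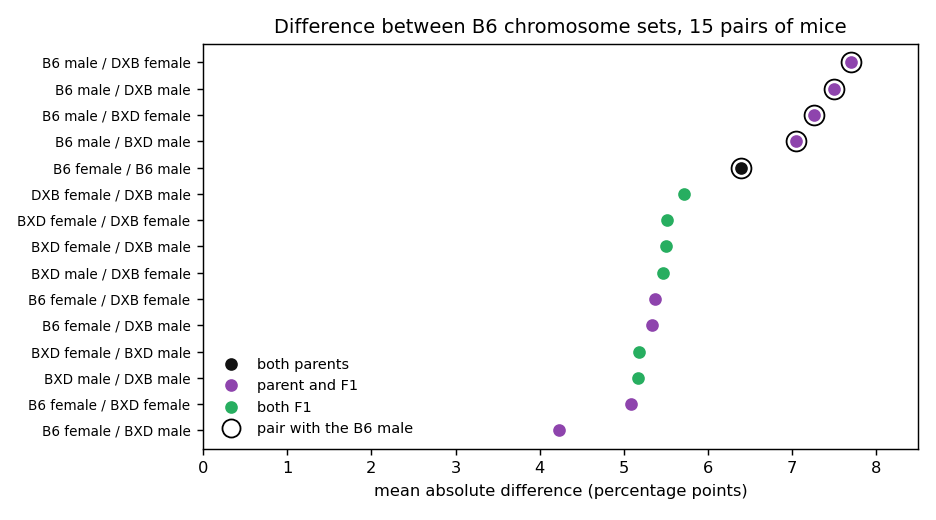
Mean absolute difference in methylation level (x axis, percentage points) for each of the 15 pairs of B6 chromosome sets over 9492 CGs. Points are coloured by the kind of pair, and rings mark the 5 pairs with the B6 male, which lie at 6.40 points and above. The other 10 pairs lie between 4.23 and 5.71 points, with pairs of parent and F1 mixed among pairs of F1 mice.

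By the rule the study used for single pairs (exact 95% binomial intervals that each exclude the other level, and a difference of at least 50 points), 9 to 54 CGs were called in each of the 8 pairs that join a parent with an F1 mouse, or 0.280% ± 0.161 of the CGs compared (SD over 8 pairs that share mice). Between F1 mice the share was 0.0998% ± 0.0461 (SD over 6 pairs), and between the 2 parents 0.268%. The intervals cover counting error only. The B6 female gave 9 to 22 calls with the F1 mice and the B6 male 38 to 54. In total 132 CGs were called in at least 1 pair, 16 against both parents in at least 1 F1 set, and 4 against both parents in 3 F1 sets.

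CGs at which all F1 sets departed in one direction were few. At 1563 of 11580 CGs (13.5%) all F1 sets with 10 reads lay above both parents (854 CGs, 7.37%) or below both (709 CGs, 6.12%), whatever the size. If the 6 sets differed only at random and without ties, the share in either direction would be 0.133. It would be larger where only 3 F1 sets have 10 reads, so this count alone does not set F1 apart from parents. With a mean difference of at least 20 points the 1563 CGs came to 191 (1.65% of 11580), called departing CGs from here on. The F1 sets were higher at 130 (1.12%) and lower at 61 (0.527%). They stood in 164 of 5246 fragments (groups of CGs on a strand, each within 100 bases of the next), of which 141 held 1 departing CG, 19 held 2 and 4 held 3. All 19 autosomes had some. Of the 191, 127 had 10 reads in all 6 sets, 95 of them higher and 32 lower, and the others rest on 3 F1 sets. The BXD male had under 10 reads at 21.5% of the departing CGs, beside 10.6% of all 11580. In 120 of the 130 higher CGs the B6 male was the lowest of the 6 sets, and the B6 female there exceeded the B6 male by a median of 17.2 points, against 0 over all CGs. At the 61 lower CGs the B6 male was the higher parent in 35 and the B6 female in 23. At the same 11580 CGs, all F1 sets lay above the B6 female alone, with a mean difference of at least 20 points, at 82 CGs. They lay below it by that rule at 110, and the counts against the B6 male alone were 618 and 316. Where the rule was applied with 1 parent, they were 134 and 183 of 16109 CGs for the B6 female and 626 and 319 of 11684 for the B6 male, so the excess of higher CGs was not found against the B6 female alone. A gap of at least 10 points between the nearest parent and the nearest F1 set was left at 76 departing CGs, 49 higher and 27 lower.

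Departing CGs lay mostly at intermediate levels. Of CGs with a mean level between 20% and 80%, 5.28% to 7.73% departed in the 3 classes of 20 points, against 0.178% under 20% and 0.428% over 80%. The classes were made from the same 6 sets, and a CG near 0% or 100% can hardly move by 20 points within its class, so these shares are a description. Within 1 kb of a transcript start 14 CGs were higher and 13 lower, of 3625. In introns 52 were higher and 17 lower, of 3059, and between genes 51 and 29, of 3842. Coding exons held 8 higher and 1 lower, of 635. Of all CGs with mean levels of 20% to 80%, 14.996% lay within 1 kb of a start, beside 10.8% of the higher and 21.3% of the lower departing CGs. The 201 bases around a departing CG held a median of 4 CGs where F1 was higher and 5 where it was lower, against 6 for all members and 4 for all members of 20% to 80%. The shallowest set at a CG had a median of 18 reads for higher, 14 for lower and 22 for all CGs.

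**Figure D3:**
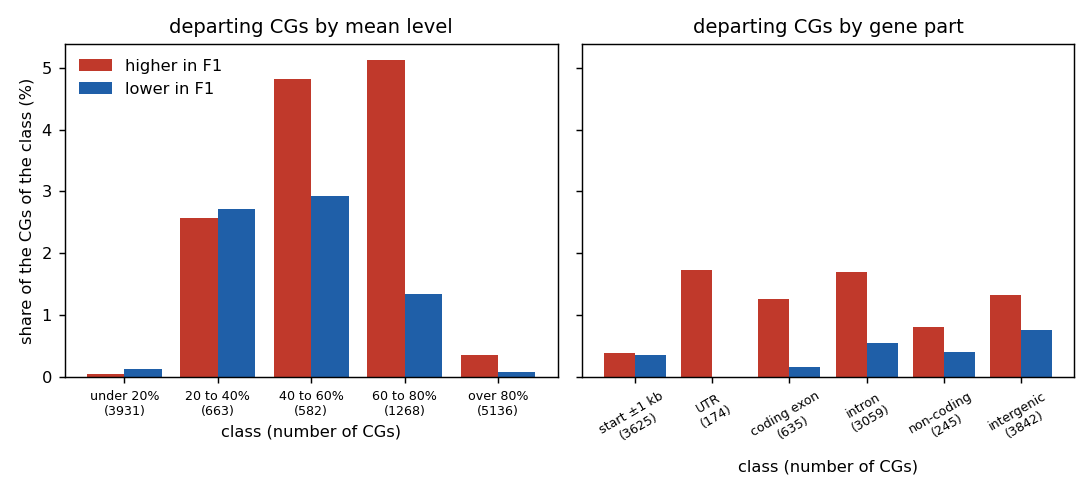
Share of CGs (y axis, %) at which every F1 set with at least 10 reads lay above (red) or below (blue) both parents, by a mean of at least 20 points. Shares are given by mean level over the 6 sets (left) and by gene part (right), with the number of CGs of each class in brackets. Shares reach 5.28% to 7.73% in total for levels of 20% to 80% and stay under 1% below 20% and above 80%.

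Methylated and unmethylated counts of all sets, also sets under 10 reads at a CG, were tested together with edgeR's quasi-likelihood test. Its p was adjusted over 11580 CGs by the Benjamini-Hochberg method. Levels and mean differences leave out sets under 10 reads. Adjusted p was below 0.05 at 14 CGs in 9 fragments (0.121%), with 6 higher in F1 (0.0518%) and 8 lower (0.0691%). Without adjustment 795 CGs (6.87%) had p below 0.05, and limma on the levels called 0 CGs (786 without adjustment). Among the 14 CGs, 11 were departing and 6 lay within 1 kb of a transcript start. The BXD male, the one F1 set with long reach, had under 10 reads at 7 of the 14 and was the F1 set nearest to the parents at the other 7. Leaving that mouse out gave 38 calls, the B6 female 244, the B6 male 36, the BXD female 6, and the DXB female or the DXB male 2 each. With 1 parent left, edgeR takes that parent to vary like the F1 sets. Without the BXD female, DXB female or DXB male, the 7 CGs with under 10 reads in the BXD male no longer met the coverage rule. They were then not tested, which is part of the drop in calls. With sex as a block there were 16 calls, 13 of them among the 14. With the parent that the B6 chromosome came from as a block there were 21, which held all 14. After thinning to 10 reads a CG there were 0 calls. That fit also left out the trend of dispersion with abundance that the main test had, so depth and fit cannot be told apart. With fragments in place of CGs 2 of 5246 were called.

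**Figure D4:**
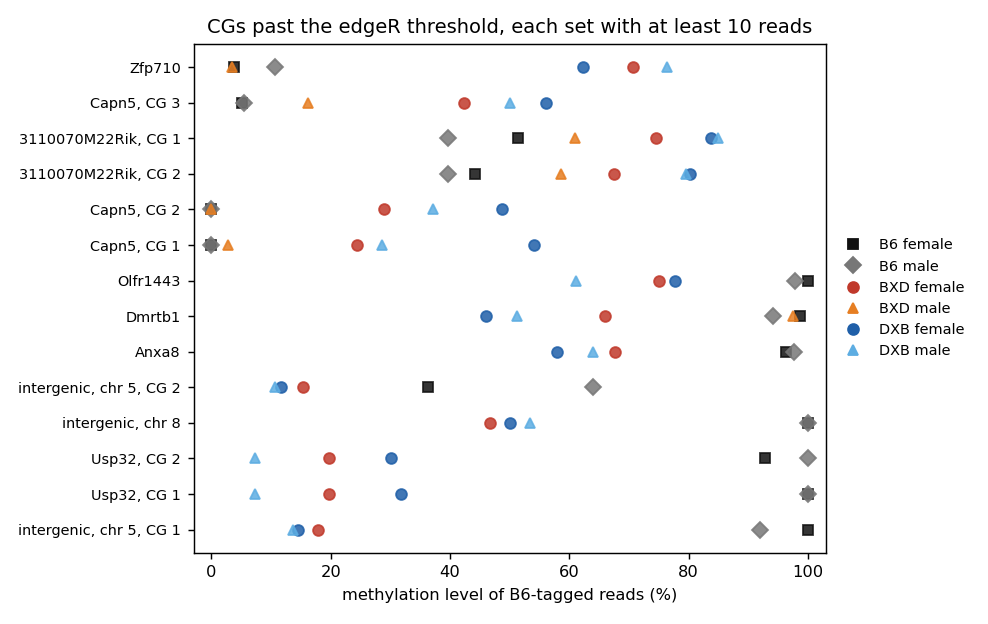
Methylation level of B6-tagged reads (x axis, %) in each set with at least 10 reads at the 14 CGs past the edgeR threshold, ordered by the difference between F1 and parents. Squares and diamonds are the parents and circles and triangles the F1 sets. The BXD male (orange triangle) is missing at 7 CGs and lies at or nearest to the parents at the other 7.

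The largest departures were low B6-tagged levels in 3 F1 mice at intergenic CGs. At chr5:111062851, with no protein-coding gene within 10 kb, the level was 100% in the B6 female and 92.0% in the B6 male, and 17.9% in the BXD female, 14.5% in the DXB female and 13.7% in the DXB male. The mean of these 3 F1 sets was 80.6 points lower, and they did not overlap the parents. The edgeR test, which also took in the BXD male, gave an adjusted p of 1.78e-12. Reads moved with the level here, with 11 and 25 in the parents, 301, 304 and 263 in those 3 F1 mice, and 7 in the BXD male. Those 7 reads were all methylated, a level of 100% (exact 95% binomial interval 59.0% to 100%) that lies with the parents and not with the other F1 mice. DBA-tagged reads of the same 3 F1 mice averaged 98.7% at this CG and numbered 63, 42 and 43, so B6-tagged reads outnumbered them there although B6 tags were near an even share of all sorted calls in these mice. The CG 14 bases further on, chr5:111062865, was at 36.4% and 64.0% in the parents and at 15.3%, 11.6% and 10.6% in the same 3 F1 mice (-37.7 points, adjusted p = 0.00736). That call was lost without the B6 male (-23.8 points) and with sex as a block (edgeR, adjusted p = 0.0514). A minimum of 5 reads adds the BXD male to the mean levels, though edgeR held its reads before as well. The difference was then -22.9 points (edgeR, adjusted p = 0.0164), and at chr5:111062851 it was -59.5 points.

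A second such fragment lies 6584 bases from Usp32, a gene for an enzyme that removes ubiquitin. At chr11:84791360 both parents were at 100%, from 14 and 10 reads, and the BXD female, DXB female and DXB male were at 19.7%, 31.7% and 7.37%, from 71, 63 and 95 reads. The BXD male had 3 reads, all methylated (interval 29.2% to 100%). The difference was -80.4 points (edgeR, adjusted p = 2.87e-06), and -77.3 points at the neighbouring chr11:84791369 (adjusted p = 3.43e-05). An intergenic CG at chr8:91346194 was at 100% in both parents and at 46.7%, 50% and 53.3% in the same 3 F1 mice (adjusted p = 0.000697), while the 7 reads of the BXD male were all methylated. That call was lost without the B6 male. With a minimum of 5 reads, which adds the BXD male to the mean levels, the difference went from -50 to -37.5 points. In the order BXD female, DXB female and DXB male, DBA-tagged reads numbered 20, 13 and 12 at chr11:84791360, and 0 were found at chr8:91346194 beside 45, 22 and 120 B6-tagged reads. As in the 2 fragments before, the result rests on the 3 libraries with short reach. The part of reach and of the number of reads was not tested, nor was it tested whether these reads were aligned and sorted alike in all libraries, so a loss of the mark itself is not shown at these 3 places.

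Near Dmrtb1, a gene for a germ cell protein with a DM domain, the BXD male did have reads. At chr4:107339755 the levels were 98.6% and 94.1% in the B6 female and male, 65.9% in the BXD female, 46.0% in the DXB female and 51.2% in the DXB male, but 97.4% in the BXD male. F1 fell by 31.2 points on average (edgeR, adjusted p = 0.00156), although 1 of the 4 F1 sets sat among the parents. The call was lost without the DXB female (0.236) or the DXB male (0.161). B6-tagged reads at this CG numbered 91, 78, 87 and 80 in the BXD female, BXD male, DXB female and DXB male. The B6 female and male had 71 and 51, and each F1 mouse had 0 DBA-tagged reads there. Whether reads were sorted alike at this CG was not tested. At Anxa8, an annexin gene, a CG within 1 kb of a start (chr14:34899713) was at 96.4% and 97.7% in the parents and at 67.6%, 57.9% and 64.0% in the BXD female, DXB female and DXB male (adjusted p = 0.0135). A CG 4316 bases from the olfactory receptor gene Olfr1443 (chr19:12762649) was at 100% and 97.8% in the parents and at 75.0%, 77.8% and 61.1% in those F1 mice (adjusted p = 0.0174). The BXD male had at most 1 read at both. At Anxa8 DBA-tagged reads were lower in these F1 mice as well. They were at 98.6% in the DBA female and at 73.0%, 59.4% and 75.0% in the BXD female, DXB female and DXB male. Near Olfr1443 they were at 98.1% in the DBA female, from 52 reads. In the same F1 order they were at 92.3%, 93.75% and 85.7% from 13, 16 and 14 reads, too few to resolve differences of this size. The call at Anxa8 was lost without the B6 male (edgeR, adjusted p = 0.0888) and the call near Olfr1443 without the B6 female (0.0796).

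The 6 CGs that rose in F1 belong to 3 genes. Capn5, which encodes a calpain protease, had 3 of them upstream of its start. At chr7:105327737 both parents were at 0%, from 55 and 73 reads, and the F1 mice were at 24.3% (BXD female), 2.78% (BXD male), 54.1% (DXB female) and 28.6% (DXB male). The mean difference was 27.4 points (edgeR, adjusted p = 7.02e-05), and the second CG gave 28.7 points (adjusted p = 3.14e-05) with the BXD male at 0% like the parents. At the third CG, chr7:105327773, the parents were at 5.08% and 5.48%, and the F1 sets were at 42.3%, 16.2%, 56.1% and 50% in the same order, with no overlap (35.9 points, adjusted p = 0.00176, lost without the DXB female at 0.128 or the DXB male at 0.0985). DBA-tagged reads there were at 8% and 14.5% in the DBA female and male and at 38.0%, 11.6%, 38.1% and 53.6% in the F1 mice, so the BXD male lay between the DBA parents and the other 3 above them.

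Zfp710, a zinc finger gene, had a CG in a coding exon (chr7:87226228) at 3.85% and 10.7% in the parents, 70.6% in the BXD female, 62.2% in the DXB female and 76.3% in the DXB male, while the BXD male was at 3.45% from 29 reads. The mean difference of 45.9 points passed the test (edgeR, adjusted p = 0.00176). Of the 4 F1 sets 3 lay far above both parents, and the BXD male lay level with the B6 female, which had 26 reads. The call was lost without any one of those 3, at an adjusted p of 0.101 (BXD female), 0.122 (DXB female) and 0.191 (DXB male). DBA-tagged reads at this CG split by mouse in the same way, so the pattern was not particular to the B6 chromosome. They were at 81.25% in the BXD female, 69.0% in the DXB female, 67.9% in the DXB male and 3.125% in the BXD male. The DBA male was at 4.65%. At the annotated gene 3110070M22Rik the B6 female and male were at 51.5% and 39.7% at chr13:120277556, and the F1 mice were at 74.5%, 60.9%, 83.8% and 84.8% (30.4 points, adjusted p = 0.0161). The F1 sets did not overlap the parents there nor at the 2 CGs that follow, of which 1 passed the test (29.6 points, adjusted p = 0.0453) and 1 did not (26.6 points, adjusted p = 0.0991). The call at the first of these 2 was lost with 5 reads (edgeR, adjusted p = 0.0746), with 10 reads in all 6 sets (0.0538), with strands added (0.0539), with the likelihood ratio test (0.0805), and without the B6 male (0.139), the BXD female (0.0705), the DXB female (0.541) or the DXB male (0.516). The call at chr13:120277556 was lost without the B6 male (0.194), the DXB female (0.481) or the DXB male (0.398). This fragment had 63 to 228 reads a set and lies in a window with 59.2% B6 tags in the B6 male. At chr13:120277556 DBA-tagged reads numbered 11, 0, 6 and 9 in the BXD female, BXD male, DXB female and DXB male. B6-tagged reads there numbered 157, 184, 228 and 198 in that order, although B6 tags were near an even share of all sorted calls. Whether reads were sorted alike here was not tested.

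Fragments with 3 departing CGs held levels that moved side by side, though none of their CGs passed the test apart from 3110070M22Rik. Hspg2, which encodes the basement membrane proteoglycan perlecan, had 30 CGs by the rule, of which 27 differed by 10 points or less and 3 in 1 fragment of an intron departed. At chr4:137034785 the parents were at 51.1% and 29.2% and the F1 mice at 73.3% (BXD female), 74.5% (BXD male), 92.3% (DXB female) and 66.7% (DXB male), a difference of 36.6 points (edgeR, adjusted p = 0.408). The other 2 CGs differed by 27.8 and 29.5 points. Without the B6 male the 3 differences were 25.6, 16.9 and 23.6 points in that order, without the DXB female the second was 19.7 points, and with strands added the third was 17.1 points. Counts were low, with 13 to 47 reads a set, and the 3 CGs share their reads.

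**Figure D5:**
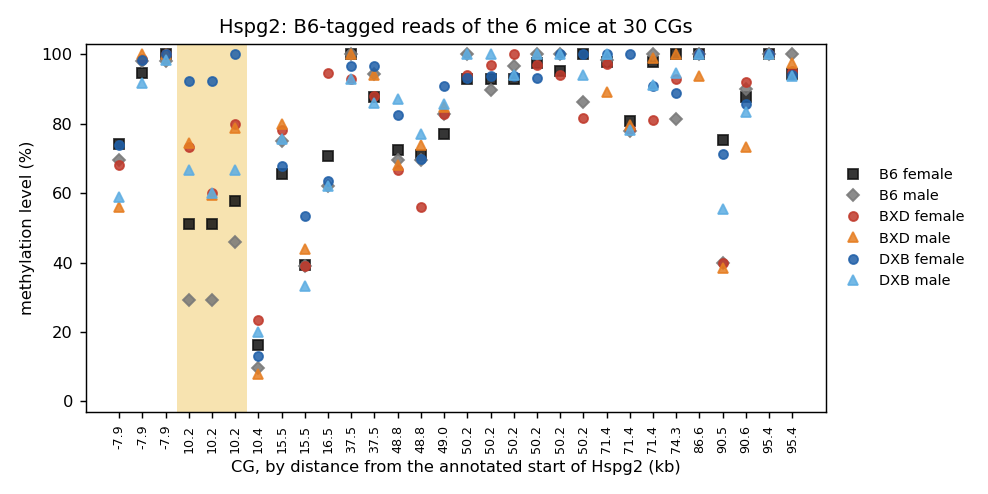
Methylation level (y axis, %) in each of the 6 mice at the 30 CGs within 10 kb of or in Hspg2, in order of distance from the annotated start (x axis, kb). The shaded fragment holds the 3 CGs at which every F1 set lay above both parents by a mean of 27.8 to 36.6 points, of which 1 falls under 20 points without the B6 male. At the other 27 CGs the means differed by 10 points or less.

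Lmf1, a gene needed for the folding of lipoprotein and hepatic lipase, had the closest parents. At chr17:25785719, in an intron, the B6 female and male were at 20.3% and 18.2%, and the F1 sets were at 35.7%, 52.9%, 44.7% and 44.4% in the order BXD female, BXD male, DXB female and DXB male. The difference of 25.2 points left a gap of 15.4 points between the groups (edgeR, adjusted p = 0.527). The CGs on either side differed by 23.1 and 25.03 points, and here the BXD male was the highest F1 set at all 3. In a coding exon of Mn1, a gene for a transcriptional coactivator, 3 CGs were higher in F1 by 23.1 to 26.9 points, with the B6 male lowest at each and the DXB male under 10 reads. Without the B6 male they differed by 17.8 to 22.0 points. In an intron of Myh14, a nonmuscle myosin gene, 2 CGs of 1 fragment were at 67.6% and 76.1% in the B6 female, 47.1% and 52.9% in the B6 male, and 74.4% to 92.0% and 79.5% to 96.0% in F1. Their differences of 24.8 and 25.6 points did not pass the test (edgeR, adjusted p = 0.666 and 0.520) and came to 14.5 and 14.0 points without the B6 male.

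Single CGs with large departures mostly set a low B6 male against the rest. Near Klf13, a gene for a Krüppel-like transcription factor, chr7:71085065 was at 66.7% in the B6 female, 9.52% in the B6 male and 75.0% to 78.4% in 3 F1 mice. The same order held near Pdpn, the podoplanin gene, at chr4:142899150 (62.5% and 21.4%, then 73.9% to 85.7%, in a window with 57.1% B6 tags in the B6 male), and in an intron of D19Wsu162e at chr19:46681540 (85.9% and 30.8%, then 91.7% to 100%). Near Ehf, which encodes an ETS factor of epithelia, the parents were closer at 63.6% and 50% with F1 at 83.3% to 100%, from 11 and 10 reads in the parents. Near D19Ertd386e the CG chr19:42583978 was lower in F1, at 60%, 51.0%, 25% and 42.1% against 87.9% and 77.8%, with all 4 F1 sets apart from both parents by at least 17.8 points (edgeR, adjusted p = 0.0994). The 3 remaining CGs among the 15 largest departures were intergenic and higher in F1, 2 of them side by side at chr1:101313459 and chr1:101313468 (35.2 and 37.3 points) and 1 at chr12:28808027 (36.1 points), with the B6 male at 31.2%, 12.5% and 26.7% and the B6 female at 84.1%, 50% and 71.2%. None of these 8 CGs passed the test. Without the B6 male the difference was 9.46 points near Klf13, 18.1 near Pdpn, 9.30 in D19Wsu162e, 8.73 and 18.6 at the chr1 pair and 13.9 at chr12:28808027.

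Gene lists were read against 1.65% of departing CGs overall. No CG departed at the 24 near imprinted loci (5 of 49 annotated genes), the 7 near genes that write, read or erase methylation (3 of 26), the 31 near hepatocyte genes (8 of 34), or the 17 near complement and coagulation genes (8 of 36). In these lists edgeR called 0 CGs (2, 0, 1 and 1 in that order below an unadjusted p of 0.05), and limma called 0 anywhere. Among methylation genes, the CG of Dnmt3a was at 92.9% to 100% and that of Tdg at 96.7% to 100% in the 6 sets. Near Foxa2, a regulator of liver identity, 7 CGs averaged 3.86% in the parents and 3.18% in F1. The 11 CGs near Foxa3 averaged 5.06% and 9.02%, with 12.99% in the BXD female and 15.97% in the DXB female against 3.50% and 3.62% in the 2 F1 males. The range at single Foxa3 CGs was -6.16 to 23.7 points.

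Of 25 CGs near genes for fasting and lipid metabolism 1 departed (4%, from 8 of 37 genes). It lies in an intron of Ppara, the nuclear receptor that drives fatty acid oxidation in fasting, at chr15:85599253. Levels were 18.3% and 6.98% in the B6 female and male and 37.1%, 40% and 22.7% in the BXD female, DXB female and DXB male (20.7 points, edgeR, adjusted p = 0.661, and 14.997 points without the B6 male), in a window with 53.8% B6 tags in the B6 male. Marker genes of other liver cells had 13 CGs in all, none of them departing, with 5 near the lymphocyte gene Cd5 at 93.7% to 97.0%. At Stab2, an endothelial scavenger receptor gene, the B6 male was at 19.2% and the other 5 sets at 64.5% to 86.7%. Col1a2, the partner of Col1a1, was at 74.2% and 51.0% in the parents and at 79.5% to 83.1% in F1 (18.1 points, edgeR, adjusted p = 0.727). Among larger families, 3 of 168 CGs near Zfp genes, 2 of 109 near potassium channel genes, 1 of 30 near olfactory receptors and 1 of 10 near cadherin genes departed, and none of 194 near Slc transporters or 35 near H2 genes. The cadherin CG, in an intron of Cdh4, was at 62.9% and 23.5% in the parents and at 63.5% to 92.6% in F1 (32.8 points, and 13.2 without the B6 male).

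At the CGs covered here, genes named by the study were mostly level. At Kcnip3, a gene for a calcium-binding partner of potassium channels, 5 CGs near a start lay at 0% to 26.4% in the parents and 0% to 13.4% in F1, all within 10 points. The study reports a hotspot of repeated differences between parent and F1 at Kcnip3, on B6 chromosomes. The 5 CGs share a fragment, and whether the sites of the study are among them is not known, so that report is not tested here. At H13, an imprinted gene for a signal peptide peptidase, 6 of 9 CGs were within 10 points and the range was -8.23 to 13.2 points. They lie in windows with 57.1% to 75.3% B6 tags in the B6 male. At chr2:152506430 every set was at 100%, also the DXB mice, whose B6 chromosome is paternal. Whether any of these CGs lies in the imprinted region was not examined. No CG of Wdr63 or Impact met the rule.

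Snrpn, which is imprinted and methylated on the maternal chromosome, showed a mean that hid 2 states. At chr7:67150086 the B6 female and male were at 28.1% and 30%, the BXD male, whose B6 chromosome is maternal, was at 93.8%, and the DXB female and male, whose B6 chromosome is paternal, were both at 0%. The other 2 CGs of the fragment were at 90.6% and 100% in the BXD male and at 0% to 9.09% in the DXB mice. The F1 mean exceeded the parents by only 2.19 to 4.18 points (edgeR, adjusted p = 0.824 to 0.840). The BXD female had 8 reads, so each parent of origin is not backed by 2 mice. Over all CGs, 42 (0.363%) had the BXD sets on one side of both parents and the DXB sets on the other with means at least 20 points apart, 20 with the maternal and 22 with the paternal B6 chromosome higher. Of these only the 3 of Snrpn lay near a listed imprinted gene, and the split was not tested.

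The presence of the DBA genome was examined at 178 CGs that had 10 reads in all 6 sets and where B6 and DBA parents differed by over 50 points. At 174 of them B6 was higher. There the level was 84.7% in the B6 female and 83.8% in the B6 male, and 83.8%, 84.4%, 83.7% and 82.6% in the BXD female, BXD male, DXB female and DXB male, while the DBA parents averaged 1.67%. F1 lay 0.867 points nearer to the DBA level over the 178 CGs (exact permutation test, two-sided, p = 0.267), and 2 of them (1.12%) departed. The shift was 2.02 points without the B6 male, 0.567 without the DXB male and 1.85 after thinning to 10 reads. The B6 parents enter both the choice of these CGs and the shift. Chosen by the mean of all 6 B6 sets instead, the shift turned to -0.253 points (exact permutation p = 0.80). A DBA cytosine that is T in that genome also reads as unmethylated, and this cannot be told apart here. Inside the F1 mice the B6 and DBA alleles lay within 20 points of each other at 6 of 12 called CGs with both levels (50%), at 150 of 185 departing CGs (81.1%) and at 10131 of 11177 CGs overall (90.6%).

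By the same rule 5193 CGs could be followed on the DBA chromosomes, with 76 departing in the F1 (56 higher, 20 lower, 1.46%) beside 1.65% on the B6 chromosomes. Pairs of a DBA parent and an F1 mouse were called at 0.175% of CGs, pairs of F1 mice at 0.0450% and the 2 DBA parents at 0.308%. The difference between the 2 chromosomes was not tested, and the CGs compared are not the same.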

How the data were processed

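Livers of 8 mice were assayed by RRBS after MspI digestion, and the 6 mice with B6 chromosomes were used. The authors aligned reads to mm9 with BS Seeker, called SNPs between the strains and sorted reads by them. The version of BS Seeker, the trimming and the handling of duplicates were not given in the sources used here. Raw counts of methylated and unmethylated reads for each cytosine and read class were deposited by the authors, with the level as a fraction from 0 to 1. Per the file headers, 4 further tables hold the authors' own comparisons and were not used, including 12 columns of values for single mice.

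Levels were recomputed as percentages from the counts of B6-tagged reads. Each strand of a CG was 1 site. Genes within 10 kb came from GENCODE for NCBIM37 (positions counted from 1), and a start means within 1 kb of a transcript start. Work was done in Python 3.11.15 (numpy 2.4.6, pandas 2.3.3, scipy 1.17.1, pysam 0.24.0, matplotlib 3.10.9) and R 4.3.3 (edgeR 4.0.16, limma 3.58.1), with samtools 1.23.1 for the reference. edgeR's quasi-likelihood test used methylated and unmethylated counts with a common dispersion and 1 term a mouse. All counts at a CG entered it, also those of sets under 10 reads, which the levels leave out. The test was also run on simulated counts with the real depths and the same spread in every mouse. They lack the differences in tags and reach described above, so that run does not bear on the calls. Means over mice were tested by exact permutation of 15 assignments, with the 2 one-sided tails doubled. A level from 10 reads has steps of 10 points, and intervals cover counting error only.

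The CGs and gene lists were chosen with earlier results of these data known. Named genes were those within 10 kb of the 15 largest departures, windows of 100 kb with at least 3 departing CGs (at most 10 windows), the genes named in the study, up to 4 genes a list with a departing or called CG, and the 5 CGs of smallest p. CGs that edgeR called but this rule leaves out were added after their values were seen. Alternatives covered minimum reads, coverage in all sets, added strands, thinning, tag purity, thresholds, tools, blocks for sex and for the B6 parent, and leaving out each mouse. Results for some genes are not reported here.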

Additional observations from a re-analysis of the deposited data

Results flagged for a closer look

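In the library labelled B6 male, 16.1% of the sorted autosomal calls carried the DBA tag, against 0.338% in the B6 female. Both mice are labelled C57BL/6J. Without the windows where that library had under 95% B6 tags, 170 departing CGs and 12 edgeR calls were left.

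Of 25 groups of 4 F1 values examined, 2 held a value far from the other 3 by Dixon's test at 95%, and chance flags about 1 in 20 groups. At chr4:137034808 in Hspg2 the DXB female was at 92.3% and the other 3 F1 mice at 59.6% to 60%. The share of B6 tags among sorted calls was 53.4% in the BXD male.

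At 2 CGs of Hspg2 the BXD mice lay on one side of both parents and the DXB mice on the other, with a BXD mean -17.5 points from the DXB mean at chr4:137073435 and -6.73 points at chr4:137095998. These differences between the crosses were not tested.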

How the results depend on the processing

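The mean level, the difference between against within groups and the shift at strain CGs stayed above an exact permutation p of 0.05 under each alternative run, which this design could not pass, and their direction turned only in the cases given here. The mean difference was 0.322 points with 20 reads and 2.58 points at CGs of 20% to 80%. With a mouse left out it ran from -0.132 points (without the B6 male) to 1.20, and the difference between against within groups from -0.408 (without the B6 male) to 1.96 points, and the shift at strain CGs from 0.567 (without the DXB male) to 2.02 points (without the B6 male). That shift was 1.85 points after thinning, 1.46 at a strain difference of 30 points, 2.44 without CGs under 5% in both DBA parents, and -0.253 and 0.436 when strain CGs were chosen by all 6 B6 sets or with DBA-tagged F1 reads. edgeR calls were 8 with 20 reads, 6 with 10 reads in all 6 sets, 0 after thinning to 10 reads (331 at an unadjusted p below 0.05), 0 with limma (786 unadjusted), 36 with the likelihood ratio test, 2 with fragments and 0 with the BXD male as the single F1 set (417 unadjusted; 1 set against 2 leaves little room for calls), and 2 to 244 when a mouse was left out. Departing CGs numbered 310 with 5 reads, 101 with 20, 127 with 10 in all 6 sets, 408 after thinning, 751 and 47 at 10 and 30 points, 50 with another departing CG within 100 bases, 76 with a gap of 10 points, 309 against DXB alone, 934 against the B6 male alone at the same CGs, 635 with the BXD male as the single F1 set and 146 to 945 when a mouse was left out. Pair calls were 0.516% with 5 reads, 1.73% after thinning and 2.19% at 30 points, and with these the share among F1 pairs was 0.304%, 1.02% and 0.944%. Of 540 values for 40 named CGs under the alternatives, 479 kept their direction and side of the threshold, 51 lost the call, 10 gained one and 0 turned. Only 14 of the 40 were called at first, so all lost calls fall on these 14. A CG that was not called counts as kept where it stayed uncalled, and a CG that an alternative no longer covers has no value. The 479 are thus no measure of how stable the calls are. The cause of these changes was not tested, and in edgeR the thinned counts also had another fit, without the trend of dispersion with abundance. The alternatives with at least 1 read in 4 F1 sets, a gap of 10 points, fragments, the BXD male alone, 1 parent at the same CGs, a block for the B6 parent and other strain CGs were chosen after seeing the data. Replicate numbers name mice and pair none. The labels give sex and cross, and edgeR made 16 calls with sex as a block and 21 with the parent of the B6 chromosome as a block (the B6 female with BXD, the B6 male with DXB). Depth limits single CGs, as 10 reads resolve 10 points.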
